A study of Mus musculus with 13 samples.

Results

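The genes described here make, sense or remove nucleotides and adenosine around the cell: Entpd1, Nt5e, Cd38, P2rx7, Adora2a, Ada, Adk and Dpp4. They were taken as every entry of both deposited count tables whose gene symbol equals one of these names, and all 8 were found among 24417 named genes. ATP set free by stressed or dying cells is a danger signal, and regulatory T (Treg) cells are known for turning it into adenosine at their surface. CD39, the product of Entpd1, strips phosphates from ATP and ADP, CD73, the product of Nt5e, turns the AMP that is left into adenosine, and adenosine acts through the A2A receptor, the product of Adora2a, to raise cAMP and restrain T cells. Extracellular ATP also opens the P2X7 channel, CD38 consumes NAD outside the cell, and adenosine is lost through adenosine deaminase (Ada) and adenosine kinase (Adk).

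Bulk RNA sequencing was done on 13 libraries of T cells sorted from pooled spleen and lymph nodes of C57BL/6 mice. The Foxp3LSL allele carries a removable Thy1.1 reporter and stop cassette ahead of a Foxp3-GFP reporter, so that cells which switch on the locus without making Foxp3 protein, called Treg "wannabes", are marked by Thy1.1 until Cre recombinase removes the cassette. The male experiment asked what Treg cells look like after Foxp3 was restored in animals with established inflammation, and the female experiment what activation does to wannabes. Total counts ran from 25558402 to 36660933 per library.

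Male mice received 4-hydroxytamoxifen on postnatal day 14 and were analysed 7 days later, at day 21. Control Treg cells (n = 3) came from Foxp3DTR-GFP/yCd4creERT2 males, rescued Treg cells (n = 3) from Foxp3LSL/yCd4creERT2 males, and wannabes (n = 2) from Foxp3LSL/yCd4wt males, which lack the Cre and stay sick. Cre-ERT2 was expressed from the Cd4 locus and was not restricted to the Treg lineage. Female mice, labelled as 9 to 11 weeks old, received diphtheria toxin on each of days 7, 5, 3 and 1 ahead of analysis, from 8 to 10 weeks of age. By the sample labels, which were used here, resting wannabes (n = 3) came from Foxp3LSL/WTCd4wt females, and activated wannabes (n = 2) from Foxp3LSL/DTRCd4wt females, in which the toxin removes the Foxp3-sufficient Treg cells. The design text of the series gives these numbers the other way round. The labels do not say how many animals went into a library, while the study's methods count as many mice as libraries in the female groups and speak of biological replicates in the male ones, so p-values measure the spread between these libraries, part of which may be technical. Sex, age, treatment and count table differ together between the experiments and cannot be told apart. Within the male experiment, the control mice, healthy by the study, differed from the rescued mice in Foxp3 allele and inflammation together. Wannabes differed from control Treg cells in Foxp3 allele, Foxp3 protein, Cre and disease together. From rescued Treg cells they differed in Foxp3 protein, Cre and the course of disease. These factors cannot be told apart either.

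The sorted identities were visible in the RNA. Foxp3 was 207 ± 42.4 CPM (counts scaled to library size over the 13 libraries by the TMM method; mean ± SD, n = 3) in control Treg cells and 950 ± 139 (n = 3) in rescued Treg cells, above every wannabe library, which lay between 54.6 and 96.7. Thy1 ran the other way, from 35.7 to 45.6 CPM in the Treg libraries and from 181 to 317 in the wannabes. Cd3e was between 729 and 1246 CPM in every library. Cd4 was lower in the libraries carrying Cd4creERT2 (383 to 512 CPM) than in the others (882 to 1329).

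The summed levels of markers of other cells were small beside those of T cells. The 8 B cell markers summed to between 10.9 and 43.2 CPM, mostly from Cd79b, with up to 5 of them at 0. The 9 myeloid markers summed to 1.49 to 13.5 CPM, the 7 dendritic cell markers to 0.848 to 8.35 CPM and the 5 NK cell markers to 0.599 to 12.5 CPM, with Itgam, Xcr1 and Klrb1c highest over all libraries pooled, though Cd68 was above Itgam in 6 libraries, Zbtb46 above Xcr1 in 3 and Klrd1 above Klrb1c in the 5 female ones; Clec9a and Klra8 were at 0 in all 13 libraries, which allows up to 0.0814 to 0.116 CPM. The CD8 markers summed to 10.2 to 27.0 CPM, nearly all from Cd8b1, while Cd8a stayed at or under 0.559 CPM. Erythroid and platelet markers reached 18.9 CPM in resting wannabe replicate 3, where Hba-a1 was 9.78 CPM, and Jchain was 20.6 CPM in the same library. The plasma cell list summed to 111 to 531 CPM, but from Xbp1 and Prdm1, which T cells also express; Tnfrsf17 was at or under 0.0727 CPM. Some of these markers moved with the comparisons. In activated against resting wannabes Cd79b was higher (1.34, edgeR adjusted p = 0.00193) and Sdc1 lower (-3.87, adjusted p = 0.00167). In control Treg cells against wannabes Itgam was higher (4.03, adjusted p = 0.0256) and Klrb1c (-2.85, adjusted p = 0.0263) and Hba-a1 (-3.17, adjusted p = 0.0483) lower. Xbp1 was higher in control (1.64, adjusted p = 0.00105) and rescued Treg cells (2.22, adjusted p = 0.000253) than in wannabes, and Prdm1 in rescued than in control Treg cells (1.46, adjusted p = 0.0276). The part of these cells in the results was not tested. By the study's methods, Treg cells and wannabes were sorted as positive for TCRβ and CD4 and negative for CD8 and for an NK cell marker. In sorted bulk samples, fewer cells of a kind and less RNA per cell cannot be told apart.

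Across the comparisons the 8 genes moved to different extents. In rescued against control Treg cells, 2 of 8 passed an adjusted p under 0.05 in edgeR's quasi-likelihood test, 1 higher and 1 lower, while 2.30% of the 14925 genes tested passed (1.43% higher and 0.864% lower); the libraries of the groups did not overlap for 4 of 8, against 24.0% of all genes. In control Treg cells against wannabes 3 of 8 passed, 2 higher and 1 lower, against 16.2% of genes (9.92% higher, 6.27% lower), and 4 of 8 did not overlap, against 45.8%. In rescued Treg cells against wannabes 1 of 8 passed, higher, which is close to the 14.1% of all genes (10.0% higher, 4.06% lower), and 4 of 8 did not overlap, against 41.7%. In activated against resting wannabes 5 of 8 passed, 2 higher and 3 lower, against 22.5% of 13166 genes (11.3% higher, 11.2% lower), and 7 of 8 did not overlap, against 56.2%. The 3 male comparisons share their libraries in pairs, so their counts are not independent. The median log2 fold change of the 8 genes was -0.054, -0.051, -0.047 and 0.29 in these comparisons, in the same order, and -0.025, 0.089, 0 and -0.0073 over all genes tested.

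**Figure D1:**
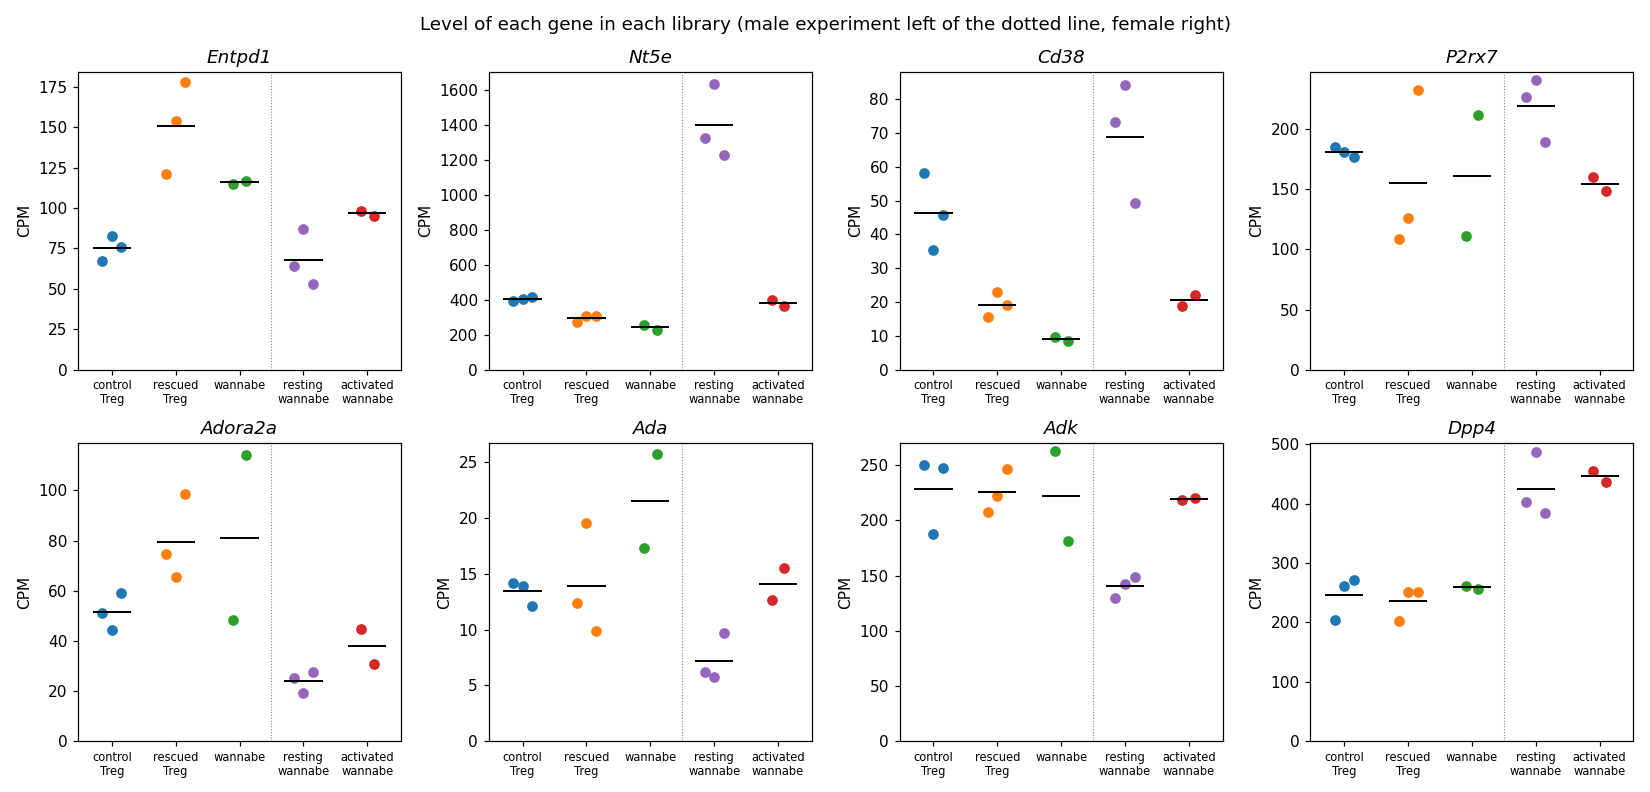
Level of each of the 8 genes in CPM (y axis, from 0) in each of the 13 libraries (points), by group (x axis), with the group mean as a line. Nt5e stands highest in the 3 resting wannabe libraries (1230 to 1632 CPM), and Cd38 is lowest in the 2 wannabe libraries of the male experiment (8.53 and 9.69 CPM).

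Entpd1 lies on chromosome 19, from 40612366 to 40741602 on the plus strand of GRCm38. Its level was 67.4, 82.4 and 75.9 CPM in control Treg replicates 1 to 3, 121, 154 and 178 CPM in the rescued Treg libraries, and 115 and 117 CPM in the wannabes. All rescued libraries were above both wannabe libraries, and these were above all control libraries. Entpd1 rose in rescued against control Treg cells (0.99, SE 0.173, edgeR adjusted p = 0.0159). That call was kept in 4 of 8 fits lacking 1 library (up to 1.12) and lost without control replicate 1 or 3 or rescued replicate 2 or 3 (log2 fold change 0.86 to 0.99, adjusted p up to 0.0871). Control Treg cells fell by 0.66 on the log2 scale against wannabes (SE 0.189, edgeR adjusted p = 0.0372, lower in 3 of 3 libraries than in either wannabe library). This call was lost in 6 of 8 fits lacking 1 library, namely each control library, rescued replicate 2 and each wannabe library (log2 fold change -0.72 to -0.58, adjusted p up to 0.118). Rescued Treg cells differed from wannabes by 0.34 (SE 0.193, adjusted p = 0.287; 0.21 to 0.47 lacking 1 library), which did not pass although the libraries did not overlap.

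In the female experiment Entpd1 was 98.4 and 95.3 CPM in activated wannabes and 64.1, 87.0 and 52.9 CPM in resting ones. The activated libraries were above the resting ones without overlap. The change missed the threshold in edgeR (log2 fold change 0.51, SE 0.194, adjusted p = 0.104) and passed it in DESeq2 (adjusted p = 0.0495); without resting wannabe replicate 2 it was 0.72 and passed in edgeR, and in the other 4 fits lacking 1 library it was 0.36 to 0.53 (adjusted p up to 0.323). On a scale set across both tables, the group means ran in the order rescued Treg (151 CPM), wannabe (116), activated wannabe (96.9), control Treg (75.2) and resting wannabe (68.0); the last 2 overlapped, and the other neighbours did not.

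Nt5e, on the plus strand of chromosome 9 from 88327197 to 88372092, was the most abundant ectonucleotidase per exon length. Control Treg libraries held 394, 407 and 413 CPM, rescued Treg libraries 271, 310 and 306 CPM, and wannabes 256 and 229 CPM. The 3 groups did not overlap, with control Treg cells highest and wannabes lowest. Control Treg cells exceeded wannabes by 0.70 (SE 0.146, edgeR adjusted p = 0.00836, higher in 3 of 3 libraries), a call made whichever of the 8 libraries was left out. Rescued against control Treg cells gave -0.46 (SE 0.128), which did not pass in edgeR (adjusted p = 0.0961) and passed in DESeq2 (adjusted p = 0.0227), and in edgeR without wannabe replicate 1 (adjusted p = 0.0486) or 2 (adjusted p = 0.0496), where the wannabe library left was assumed to vary like the other groups; in the other 6 fits lacking 1 library the adjusted p was up to 0.334. Rescued Treg cells against wannabes gave 0.24 (SE 0.144, adjusted p = 0.305; 0.10 to 0.34 lacking 1 library).

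In the female experiment Nt5e was 1327, 1632 and 1230 CPM in resting wannabes and 400 and 366 CPM in activated wannabes. Every activated library was below every resting one, by a wide gap. Nt5e fell by 1.86 on the log2 scale (SE 0.135, edgeR adjusted p = 0.000566), a level 0.275 times that of resting wannabes, and passed whichever of the 5 libraries was left out. The changes of the 2 experiments were also set against each other in 1 fit over the 13 libraries: the change from control to rescued Treg cells exceeded that from resting to activated wannabes by 1.42 (SE 0.179, adjusted p = 0.00201), and this held in each of 13 fits lacking 1 library. Of the 8 genes, only Nt5e passed this test of the difference, against 1.53% of 15201 genes. Activated wannabes (383 CPM) and control Treg cells (405 CPM) overlapped in level.

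CD39 and CD73 act in sequence, and in control Treg cells against wannabes their transcripts passed in opposite directions. The ratio of Nt5e to Entpd1 per exon length within a library, a measure chosen after the values were seen, was 3.79, 3.20 and 3.53 in control Treg cells, 1.45, 1.31 and 1.12 in rescued Treg cells, and 1.45 and 1.27 in wannabes. It was 13.4, 12.2 and 15.1 in resting wannabes and 2.63 and 2.49 in activated wannabes. The ratio was lower in every rescued library than in any control library and in every activated library than in any resting one, while rescued Treg cells and wannabes overlapped. No test was made of it.

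Of the 9 ectonucleotidases on the list, 4 were under 1 CPM on average. Enpp1, which releases AMP from ATP, was 18.4 to 32.1 CPM in the male and 49.7 to 68.7 CPM in the female libraries and passed in no comparison. Acpp, which encodes prostatic acid phosphatase, an enzyme that can also cleave AMP, was 54.8, 70.1 and 33.1 CPM in resting wannabes and 5.16 and 5.81 CPM in activated ones. The groups were far apart, and the change was -3.26 (SE 0.341, edgeR adjusted p = 0.00166), with a pass in each of 5 fits lacking 1 library. In the male experiment Acpp passed in no comparison, and its libraries ranged from 1.05 to 12.3 CPM, the wannabes giving both ends.

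Cd38, on the plus strand of chromosome 5 from 43868553 to 43912375, encodes a surface enzyme that breaks down NAD. Control Treg libraries held 58.0, 35.4 and 45.6 CPM, rescued Treg libraries 15.5, 23.1 and 19.2 CPM, and wannabes 9.69 and 8.53 CPM. The 3 groups did not overlap, in the order control, rescued, wannabe. Cd38 fell by 1.28 in rescued against control Treg cells (SE 0.261, edgeR adjusted p = 0.0285, lower in 3 of 3 libraries), and rose by 2.31 in control Treg cells (SE 0.316, adjusted p = 0.00120) and by 1.03 in rescued Treg cells (SE 0.299, adjusted p = 0.0414) against wannabes. The rise in rescued Treg cells did not pass in edgeR with only the 2 groups compared or with the replicate number as a block, and passed in DESeq2. The first call was lost without control replicate 1 or 3 or without any 1 of the rescued libraries (log2 fold change -1.42 to -1.08, adjusted p up to 0.142), the second in no such fit, and the third without control replicate 1 or 3, rescued replicate 2 or 3, or either wannabe library (0.88 to 1.14, adjusted p up to 0.170).

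Resting wannabes held 73.1, 84.3 and 49.3 CPM of Cd38, and activated wannabes 18.9 and 22.2 CPM. Both activated libraries were below all resting ones. Cd38 fell by 1.74 (SE 0.237, adjusted p = 0.00430), and without activated replicate 1 the change was -1.64 with an adjusted p of 0.0565. The difference between this change and that from control to rescued Treg cells was 0.48 (SE 0.357, adjusted p = 0.646). Over the 5 groups the mean levels ran from resting wannabe (68.9 CPM) through control Treg (46.4), activated wannabe (20.6) and rescued Treg (19.2) to wannabe (9.11); resting wannabes overlapped control Treg cells, activated wannabes overlapped rescued Treg cells, and the other neighbours did not overlap.

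Among 7 NAD ectoenzymes measured, Art2b was the most abundant per length. It encodes an ADP-ribosyltransferase that uses NAD to modify surface proteins of mouse T cells, P2X7 among them. Art2b was 101, 76.7 and 61.5 CPM in control Treg cells, 34.3, 82.5 and 89.2 in rescued Treg cells and 17.2 and 20.7 in wannabes. It rose in control (2.04, SE 0.387, adjusted p = 0.00554) and rescued Treg cells (1.81, SE 0.383, adjusted p = 0.00919) against wannabes. In the female experiment it went from 65.5, 62.8 and 64.6 CPM in resting to 25.7 and 35.6 CPM in activated wannabes, a fall of 1.07 (SE 0.149, adjusted p = 0.00470). These 3 calls of Art2b held whichever library was left out. All 4 NAD ectoenzymes tested in the female experiment passed, beside 22.5% of all genes: Cd38, Art2b and Art4 lower and Art3 higher, but Art3 and Art4 were lost without either activated library (adjusted p up to 0.0823 and 0.126).

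**Figure D2:**
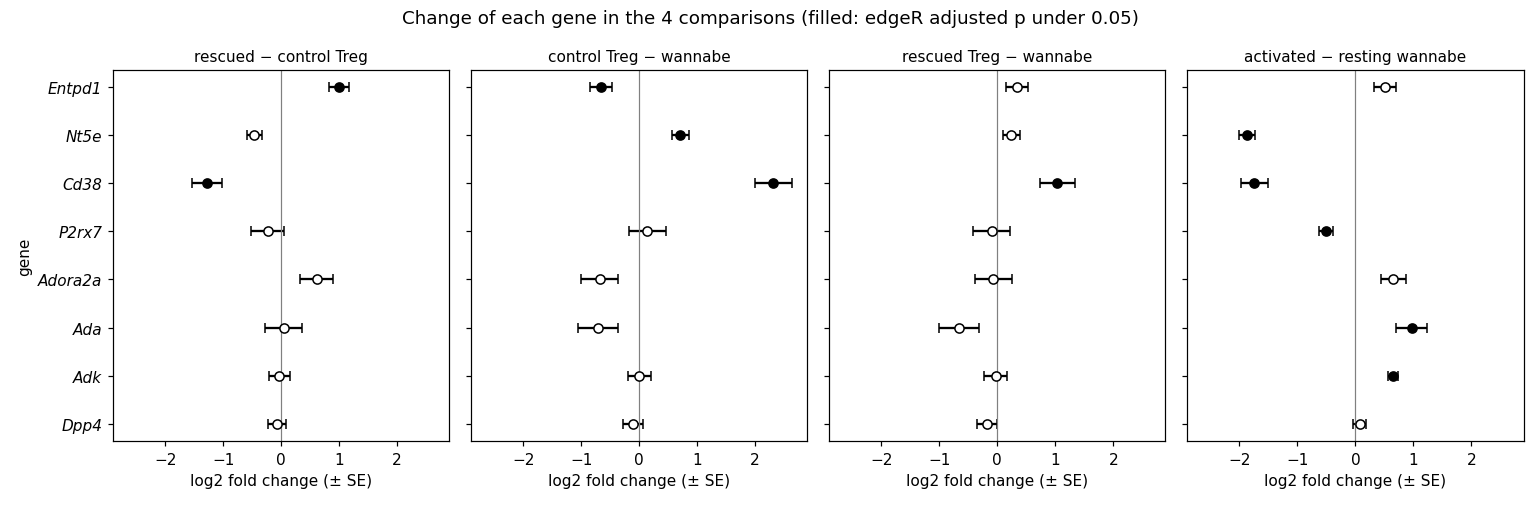
Log2 fold change with its standard error (x axis, bars) of each of the 8 genes (y axis) in 4 comparisons, 1 per panel; filled points have an edgeR adjusted p under 0.05. With all libraries, Cd38 passed in all 4 comparisons (-1.28, 2.31, 1.03 and -1.74), and Dpp4 passed in none. Only the Cd38 call in control Treg cells against wannabes held whichever library was left out.

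P2rx7 encodes an ATP-gated channel whose strong opening kills T cells. The gene lies on the plus strand of chromosome 5 from 122643911 to 122691432, and 119 of its exonic bases are shared with the annotated microRNA gene Mir8115. Control Treg libraries held 185, 180 and 177 CPM, rescued Treg libraries 108, 126 and 232 CPM, and wannabes 111 and 212 CPM. The control libraries lay close together, whereas rescued replicate 3 and wannabe replicate 2 were far above the others of their groups, and all 3 groups overlapped. P2rx7 passed in none of the 3 male comparisons (log2 fold change -0.23 to 0.14, adjusted p 0.786 to 0.885), and in rescued against control Treg cells its change ran from -0.63 to -0.033 as each library was left out.

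Measured by the chi-square of the counts per degree of freedom, the replicate pairs that hold these 2 libraries differed most over all genes (143 for rescued replicates 1 and 3, 79.5 for rescued replicates 2 and 3 and 144 for the wannabe pair, and 13.2 to 62.5 for the other pairs). Pearson's r of log2 CPM gave another order: it was lowest for control replicates 1 and 2 (0.965) and 2 and 3 (0.966), below the wannabe pair (0.970).

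In the female experiment P2rx7 was 227, 241 and 189 CPM in resting wannabes and 160 and 148 CPM in activated ones, without overlap. It fell by 0.50 (SE 0.117, adjusted p = 0.0271). The call was lost without either activated library or resting replicate 1 (log2 fold change -0.56 to -0.46, adjusted p up to 0.181). Over the 5 groups P2rx7 spanned only 1.42-fold, from resting wannabe (219 CPM) and control Treg (181 CPM) down to wannabe (161 CPM), rescued Treg (155 CPM) and activated wannabe (154 CPM); resting wannabes did not overlap control Treg cells, and each other neighbour overlapped the next.

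Of the other receptors for ATP and its relatives, P2rx4, a further ATP-gated channel, passed in 3 comparisons. It was higher in control (0.98, SE 0.234, edgeR adjusted p = 0.0167) and rescued Treg cells (0.88, SE 0.233, adjusted p = 0.0272) than in wannabes, and lower in activated than in resting wannabes (-0.84, SE 0.0946, adjusted p = 0.00217). The first call was lost without control replicate 2 or wannabe replicate 1 (adjusted p up to 0.0654), and the second without rescued replicate 2 or 3 or either wannabe library (adjusted p up to 0.0989). P2ry14, a receptor for UDP-sugars, was 7.40 and 9.18 CPM in activated and 1.06, 0.862 and 2.04 CPM in resting wannabes. It rose by 2.65 (SE 0.386, adjusted p = 0.00561), though without activated replicate 2 the adjusted p was 0.0594. P2ry1 (-1.39) and P2rx5 (2.22) also passed there, from levels under 5 CPM, but each was kept in 1 of 5 fits lacking 1 library, the one without resting replicate 3 (adjusted p otherwise up to 0.224 and 0.255). Per length over all 13 libraries P2ry14 was the most abundant P2Y gene (0.380 RPKM), but P2ry1 led in resting wannabes and P2ry12 in rescued Treg cells. On average over the 13 libraries, 5 of 7 P2Y and 4 of 7 P2X genes were under 1 CPM.

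Adora2a, on the plus strand of chromosome 10 from 75316877 to 75334784, was the only adenosine receptor gene over 1 CPM; the other 3 were under it on average. Control Treg libraries held 51.1, 44.1 and 58.9 CPM, rescued Treg libraries 74.6, 65.5 and 98.6 CPM, and wannabes 48.2 and 114 CPM. All rescued libraries were above all control libraries, while 1 wannabe library lay within the control range and the other above every rescued library. The change in rescued against control Treg cells was 0.62 (SE 0.285, edgeR adjusted p = 0.316) and did not pass. Wannabe replicate 2, which was high for P2rx7, was also the highest for Adora2a, and without it the difference between rescued Treg cells and wannabes turned from -0.067 to 0.62 (adjusted p = 0.204), while without replicate 1 it was -0.55 (adjusted p = 0.200). Control Treg cells against wannabes gave -0.68 (SE 0.313, adjusted p = 0.163), which was -1.17 and passed without wannabe replicate 1, and was -0.0023 without wannabe replicate 2.

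Activated wannabes held 44.6 and 30.9 CPM of Adora2a and resting ones 25.1, 19.3 and 27.5 CPM. The groups did not overlap. The change of 0.66 (SE 0.214) missed the threshold in edgeR (adjusted p = 0.0711) and passed in DESeq2 (adjusted p = 0.0249); lacking 1 library it was 0.36 to 0.89 and passed in no edgeR fit, with the lowest value and an adjusted p of 0.417 without activated replicate 1. Mean levels ran from wannabe (81.2 CPM) and rescued Treg (79.6) through control Treg (51.4) and activated wannabe (37.7) to resting wannabe (24.0); wannabes overlapped rescued Treg cells, control Treg cells overlapped activated wannabes, and the other neighbours did not overlap.

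The A2A receptor signals through cAMP, and 18 genes of that step were tested. In rescued against control Treg cells 1 of 18 passed, beside 2.30% of all genes: Pde7a, which encodes a cAMP phosphodiesterase. Its level was 26.5, 21.1 and 32.1 CPM in control, 9.33, 8.84 and 7.75 CPM in rescued and 17.2 and 22.9 CPM in wannabe libraries. The rescued libraries were below all others, with a change of -1.63 against control (SE 0.267, edgeR adjusted p = 0.0116) and -1.25 against wannabes (SE 0.288, adjusted p = 0.0142). The first was lost without control replicate 1 or 3 (adjusted p up to 0.0564) and the second without wannabe replicate 2 (adjusted p = 0.0679). In activated against resting wannabes 4 of 18 passed, a share like the 22.5% of all genes, 1 higher and 3 lower: Pde3b, another phosphodiesterase, by 1.05 (SE 0.178, adjusted p = 0.00975; 0.0966 without activated replicate 2), and Creb1, Pde4b and Gnal, with changes of -0.54, -0.45 and -0.43, which were lost without either activated library (adjusted p up to 0.169). Against wannabes, 2 of 18 were higher in control Treg cells, beside 16.2% of all genes. In rescued Treg cells 2 were higher and 2 lower, Pde7a included, beside 14.1%. Crem and Gnal were higher in control (1.02 and 1.08) and in rescued Treg cells (1.25 and 0.93) than in wannabes, and Adcy6 was lower in rescued Treg cells than in wannabes (-1.62). Of these calls, both of Gnal held whichever library was left out. Crem was lost in 5 of 8 fits in control (each control library, rescued replicate 3 or wannabe replicate 2 left out, adjusted p up to 0.229) and without wannabe replicate 2 in rescued Treg cells (adjusted p = 0.114), and Adcy6 in 5 of 8 (control replicate 3, each rescued library or wannabe replicate 2 left out, adjusted p up to 0.253). Prkar1a, a regulatory subunit of protein kinase A, was the most abundant of the 18 per length in each of the 5 groups.

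Adenosine is removed inside and outside the cell by deamination and inside it by phosphorylation. Ada, on the minus strand of chromosome 2 from 163726584 to 163750239, was the least abundant of the 8 per length in control Treg cells and in resting wannabes. Control Treg libraries held 14.2, 13.9 and 12.1 CPM, rescued Treg libraries 12.4, 19.5 and 9.85 CPM, and wannabes 17.3 and 25.7 CPM. Rescued libraries lay on both sides of the control ones, and Ada passed in none of the male comparisons (adjusted p 0.188 to 0.973). Lacking 1 library, its change ranged from -0.96 to -0.46 in control and from -0.95 to -0.42 in rescued Treg cells against wannabes. Resting wannabes held 6.23, 5.71 and 9.68 CPM and activated wannabes 12.6 and 15.5 CPM, a rise of 0.97 without overlap (SE 0.261, edgeR adjusted p = 0.0417). Leaving out each library in turn, this call was kept only without resting replicate 3 (1.24); in the other 4 fits the adjusted p was 0.0724 to 0.239.

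Adk, on the plus strand of chromosome 14 from 21052574 to 21448569, encodes the kinase that returns adenosine to AMP. It was 250, 187 and 248 CPM in control Treg cells, 207, 222 and 247 CPM in rescued Treg cells, and 263 and 181 CPM in wannabes. These groups overlapped throughout. In the female experiment Adk was 129, 143 and 149 CPM in resting and 218 and 221 CPM in activated wannabes, well apart. It rose by 0.65 (SE 0.0812, adjusted p = 0.00322), and passed whichever of the 5 libraries was left out. Mean Adk lay between 220 and 228 CPM in the other 4 groups, each overlapping the next, and at 140 CPM in resting wannabes. The difference between the changes of the 2 experiments was -0.67 (SE 0.231, adjusted p = 0.202).

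Dpp4 encodes CD26, a surface peptidase that in humans holds adenosine deaminase at the membrane. The gene lies on the minus strand of chromosome 2 from 62330073 to 62412231, and 232 of its exonic bases are shared with the antisense gene Gm13561, whose reads cannot be told apart without strand. Dpp4 ranged from 202 to 272 CPM over the 8 male libraries and from 384 to 487 CPM over the 5 female ones. Its log2 fold changes lay between -0.18 and 0.073 in the 4 comparisons, with adjusted p from 0.526 to 0.882, and between -0.26 and 0.18 lacking 1 library. The activated and resting wannabes overlapped, as did control and rescued Treg cells, while all rescued libraries were below both wannabe libraries.

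Per kilobase of exon (RPKM), Nt5e led in control Treg cells (47.0 ± 1.16, SD, n = 3) and resting wannabes (162 ± 24.4, n = 3), and Dpp4 in rescued Treg cells (37.2 ± 4.48, n = 3), wannabes (41.0 ± 0.505, n = 2) and activated wannabes (70.6 ± 2.00, n = 2). In rescued Treg cells Nt5e came next (34.4 ± 2.49, n = 3), and its gap to Dpp4 was smaller than the SD of Dpp4 but larger than that of Nt5e. Entpd1 moved from place 6 of 8 in control (13.5 RPKM) to place 3 in rescued Treg cells (27.0 RPKM), close to Adk (26.4), P2rx7 (26.0) and Adora2a (26.0). Cd38 was last in rescued Treg cells, wannabes and activated wannabes, and at place 4 in resting wannabes. The order depends on the length used: with the longest transcript in place of all exons, Nt5e led in all 5 groups, and 2 to 5 of the 8 places changed per group.

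Over all 9 pathway lists, 71 of 85 genes were tested in the male experiment. In rescued against control Treg cells 4 passed, beside 2.30% of all genes: 1 rose (Entpd1) and 3 fell, Cd38, Pde7a and Slc17a9, the vesicular transporter that loads ATP (-0.93, SE 0.172, edgeR adjusted p = 0.0189). Slc17a9 was 123, 152 and 156 CPM in control and 74.6, 67.4 and 85.7 CPM in rescued Treg cells, without overlap, and its call was kept in 4 of 8 fits lacking 1 library (lost without control replicate 2 or 3 or rescued replicate 1 or 2, adjusted p up to 0.0882). In control Treg cells against wannabes 8 were higher and 5 lower, and in rescued Treg cells against wannabes 6 and 5, of 71 each. These shares are close to the 16.2% and 14.1% of all genes and say little about the lists. Of the 11 calls in rescued Treg cells against wannabes, 4 were kept with only the 2 groups compared, 8 with the replicate number as a block and 11 in DESeq2. The latter 11 calls were all lost in edgeR when rescued replicate 3 and wannabe replicate 2 were left out together, a choice made after the values were seen that left 1 wannabe library, assumed to vary like the other groups. In activated against resting wannabes 9 of 63 were higher and 16 lower, beside 11.3% and 11.2% of all genes, and 7 or 8 of the 25 calls were kept where a single activated library was left. The median log2 fold change of the lists together was -0.047, 0.14, -0.027 and -0.013 in these 4 comparisons, beside -0.025, 0.089, 0 and -0.0073 over all genes tested.

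Slc29a1, an equilibrative nucleoside transporter, was lower in control (-0.85, SE 0.171, edgeR adjusted p = 0.00718) and rescued Treg cells (-0.72, SE 0.171, adjusted p = 0.0169) than in wannabes, and lower in activated than in resting wannabes (-0.71, SE 0.116, adjusted p = 0.00828). The second call was lost without rescued replicate 2 or wannabe replicate 2 (adjusted p up to 0.0876), and the third without either activated library (adjusted p up to 0.0745). Slc28a2, a concentrative transporter, was higher in control Treg cells than in wannabes (0.78) and lower in activated than in resting wannabes (-0.38), and Slc29a4 was higher in activated than in resting wannabes (2.44), where it was 0.359 to 1.17 CPM. Both calls in activated wannabes were lost without either activated library (adjusted p up to 0.157 and 0.120), and that of Slc28a2 in control Treg cells held in every fit. Of 7 transporter genes tested, 1 was higher and 1 lower in control Treg cells against wannabes, beside 16.2% of all genes. In rescued Treg cells 1 of 7 was lower, beside 14.1%. In activated against resting wannabes 1 of 6 was higher and 2 were lower, beside 22.5%. Slc29a1 led the 7 transporter genes per length in the 3 wannabe groups (59.5, 46.0 and 75.4 RPKM in wannabes, activated and resting wannabes), and Slc28a2 in control (57.5 RPKM) and rescued Treg cells (43.5 RPKM).

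Of 16 salvage enzymes tested, Aprt (-1.12) and Ahcy (-1.12) were lower and Nt5c3 (1.09) higher in control Treg cells than in wannabes; Ahcy (-0.86) and Nt5c3 (0.87) passed the same way in rescued Treg cells, where each was lost in 6 of 8 fits lacking 1 library: Ahcy without control replicate 1 or 3, rescued replicate 2 or 3 or either wannabe library (adjusted p up to 0.130), and Nt5c3 without any control library, rescued replicate 1 or 2 or wannabe replicate 2 (adjusted p up to 0.230). In control Treg cells Nt5c3 was lost without wannabe replicate 2 (adjusted p = 0.0911). In activated against resting wannabes Ada, Adk and Hprt (0.50) were higher and Ampd1 (-2.02) and Adal (-0.41) lower; Hprt was lost without either activated library (adjusted p up to 0.134), and Ampd1 and Adal were kept only without resting replicate 2 (adjusted p otherwise up to 0.185 and 0.274). Of the 16, 1 was higher and 2 lower in control Treg cells against wannabes, beside 16.2% of all genes. In rescued Treg cells 1 was higher and 1 lower, beside 14.1%, and in activated wannabes 3 were higher and 2 lower, beside 22.5%. Nt5c led the list per length in the 3 male groups, and Hprt in the female ones.

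Among the ATP release genes, Slc17a9 was the most abundant per length in 4 groups and Panx1 in activated wannabes (27.1 against 26.3 RPKM). Panx1 (0.37) was higher and Gja1 (-3.21) lower in activated than in resting wannabes, and Calhm2 was lower in control (-0.91) and rescued Treg cells (-0.80) than in wannabes. These were 1 higher and 1 lower of 5 genes tested in activated wannabes, beside 22.5% of all genes. In control and rescued Treg cells 1 of 5 was lower, beside 16.2% and 14.1%. Gja1 held in every fit, Panx1 was lost without either activated library or resting replicate 3 (edgeR adjusted p up to 0.172), and Calhm2 was lost in 3 of 8 fits in control (control replicate 2 or 3 or wannabe replicate 2 left out, adjusted p up to 0.129) and kept only without wannabe replicate 1 in rescued Treg cells (adjusted p otherwise up to 0.217).

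For each of the 8 genes, genes of similar pattern were found by Pearson's r of log2 CPM over the 13 libraries, each table centred on its own mean, among 10240 genes. Nt5e was closest to Ckb (r = 0.972, and 0.884 over the 8 male and 0.987 over the 5 female libraries), Nr1d1 (0.954) and Pdlim5 (0.952, with 0.650 over the male libraries). Cd38 was closest to Kmt2e (r = 0.967, 0.984 and 0.943) and Aftph (0.962). For Entpd1 they were Gnaq (r = 0.931, 0.959 and 0.877), Il12rb1 (0.922) and F830016B08Rik (0.921). Adora2a was nearest to Gm19897 (0.928), Man2b1 (0.925) and Tldc1 (0.907), and P2rx7 to Lztr1 (0.928), Acin1 (0.917) and Svil (0.907). Ada had C330006A16Rik (0.890), Suclg1 (0.882) and Ccdc30 (0.871), Adk had Dscc1 (0.939), Gen1 (0.915) and Pus10 (0.899), and Dpp4 had Tor3a (0.827), Stx18 (0.775) and Parp9 (0.758). These r describe libraries that share groups, and no p belongs to them. The nearest genes depend on the measure: by Spearman's correlation most of each set was kept for 5 of the 8 genes, and over the male libraries alone for 2, Entpd1 and Adora2a.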

How the data were processed

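RNA of doubly sorted cells was amplified with the SMART-Seq v4 kit, and libraries were made with the KAPA Hyper Prep kit. Per the labels and the study's methods, the authors aligned reads to GRCm38 with STAR 2.7.3a, realigned them with GATK and deposited raw counts per gene; the labels also name DESeq2 1.28.1, and the gene annotation and strand setting were not given in the sources used here. Each of the 2 tables had 24421 entries. The 4 without a gene name (0.00353% to 0.00841% of counts) were left out. Here, edgeR 4.0.16 (R 4.3.3; TMM, filterByExpr by group, quasi-likelihood test, two-sided, Benjamini-Hochberg over all genes tested) fitted the 8 male libraries together, the 5 female libraries alone, and all 13 for the difference of the changes. CPM used TMM factors over 13 libraries, and RPKM the union of exons in the GENCODE annotation; log2 CPM had a prior count of 2. A count of 0 allows up to 3 counts, for counting error only. The procedure was tested on simulated data, for rescued against control Treg cells, activated against resting wannabes and the difference of the changes. In this order edgeR recovered 32, 74 and 15 of 100 genes changed 2-fold, and 86, 98 and 72 of 100 changed 4-fold. Its false calls, counted over all genes, were 6, 13 and 6. DESeq2 recovered 53, 87 and 30 of those changed 2-fold and 93, 99 and 83 of those changed 4-fold. It made 40, 41 and 44 false calls, more than edgeR in each, so a pass in DESeq2 alone is weaker. Replicates of each group differed by more than sampling noise. Alternatives were DESeq2 1.42.0, its size factors, other filters on low counts, only the groups compared, the replicate number as a block, and leaving out each library. Beside the 8 genes, the text names the pathway genes that passed in any comparison, the most abundant genes per list, Enpp1, and 2 or 3 of the genes most like each. The 8 genes and the lists were chosen with earlier results of these data known.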

Additional observations from a re-analysis of the deposited data

Results flagged for a closer look

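For 3 of 72 genes tested from the pathway lists, beside 1.53% of 15201 genes, the change from control to rescued Treg cells differed from that from resting to activated wannabes in the fit over all 13 libraries. For Nt5e the difference of the log2 fold changes was 1.42 (SE 0.179, edgeR adjusted p = 0.00201), with changes of -0.46 and -1.86. For Pde7a it was -1.49 (SE 0.304, adjusted p = 0.0273): its level was lower in rescued than in control Treg cells by a change of -1.63, while activated wannabes (22.6 and 26.8 CPM) and resting wannabes (25.2 to 28.1 CPM) overlapped. For P2ry14 it was -2.71 (SE 0.623, adjusted p = 0.0499): it was 2.83 to 5.82 CPM in rescued and 3.79 to 5.47 CPM in control Treg cells, and rose by 2.65 in activated wannabes. With the replicate number as a block, the difference passed for Nt5e but not for Pde7a or P2ry14. Leaving out each library in turn, the difference passed in 13 of 13 fits for Nt5e, in 5 for Pde7a and in 3 for P2ry14.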

How the results depend on the processing

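With 2 or 3 libraries per group, several calls rest on single libraries. Leaving out each library in turn, the members called ranged from 0 to 3 of 8 in rescued against control Treg cells (genes called 114 to 598), from 0 to 1 in rescued Treg cells against wannabes and from 2 to 5 in activated against resting wannabes (genes called 751 to 3215). Genes called ranged from 1549 to 2423 in control Treg cells against wannabes and from 44 to 430 for the difference of the changes. In rescued Treg cells against wannabes, 1570 to 1818 of 14516 to 14756 genes tested were called in the fits that kept both wannabe libraries. Where 1 library of a group was left, it was assumed to vary like the other groups.

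Genes called in rescued against control Treg cells rose from 343 to 1096 in DESeq2, 612 with no filter on low counts, 580 with only the 2 groups compared and 650 with rescued replicate 3 and wannabe replicate 2 both left out, a choice made after seeing the data. For the difference of the changes, 233 became 770 in DESeq2 and 413 without those 2 libraries. In rescued Treg cells against wannabes the 1 call, Cd38, became 0 with only the 2 groups compared, with those 2 libraries left out and with the replicate block (edgeR; genes at an unadjusted p under 0.05 numbered 3721, 3790 and 3858), while DESeq2 kept it. The cause was not tested.

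By the labels, samples with the same number shared only that number, while the study used littermates as controls unless it said otherwise. Deviations of same-numbered control and rescued libraries correlated by 0.084, 0.060 and -0.019, and not every library correlated best with its own number. With so few libraries per group, these correlations cannot exclude a pairing. With the replicate block, genes called were 426 in rescued against control Treg cells, 2304 and 1968 for control and rescued Treg cells against wannabes, 2045 in activated against resting wannabes and 238 for the difference, and the members called were 2, 3, 0, 6 and 1. Of the 3 pathway genes called for the difference, the block kept 1, Nt5e, while Pde7a and P2ry14 no longer passed. Of the 25 pathway genes called in activated against resting wannabes, the block kept 20, and 22 were called with it.

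The changes that turned direction had not passed the threshold. Adk in control Treg cells against wannabes (0.0038) was -0.039 under DESeq2 size factors and in DESeq2, -0.0076 at a mean normalized count over 100, -0.044 with the block, -0.032 with only the 2 groups and -0.30 without the 2 libraries named above. Adk in rescued against control Treg cells became 0.034 and in rescued Treg cells against wannabes 0.026 at a mean normalized count over 100, where Adora2a in the latter became 0.011; without the 2 libraries this was 0.45, and P2rx7 in the difference of the changes -0.090. Ada in rescued against control Treg cells was -0.021 with the block. Leaving out each library, in rescued against control Treg cells Ada ranged from -0.27 to 0.24, Dpp4 from -0.19 to 0.015 and Adk from -0.16 to 0.042. In control Treg cells against wannabes P2rx7 ranged from -0.25 to 0.61, Dpp4 from -0.18 to 0.010 and Adk from -0.30 to 0.31. In rescued Treg cells against wannabes Adora2a ranged from -0.55 to 0.62, P2rx7 from -0.49 to 0.38 and Adk from -0.33 to 0.28, and in the difference of the changes Adora2a from -0.27 to 0.27 and P2rx7 from -0.093 to 0.48.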
